A study of Homo sapiens with 12 samples.

Results

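The IL-1 family genes described here are 10 genes of the interleukin-1 system, taken from the count table by their gene names: the agonists IL1A, IL1B, IL36G and IL18, the anti-inflammatory cytokine IL37, the antagonists IL1RN and IL18BP, and the receptor genes IL1R1, IL1RAP and IL1R2. They are 10 of the 58735 genes listed, and 9 of them passed the filter on low counts that left 16046 genes. IL37 did not pass. RNA was sequenced from tumor-associated macrophage (TAM) cultures in 4 groups of 3 libraries each. All of them started from THP-1, 1 human monocytic leukemia cell line, which had been differentiated with the phorbol ester PMA and shared culture medium with AsPC-1 cells, a pancreatic cancer line. In the control group the AsPC-1 cells carried an empty lentiviral vector. In the OE-MMP28 group they overexpressed the matrix metalloproteinase MMP28, and in the anti-IL-8 and anti-VEGFA groups a neutralizing antibody against that factor was added to OE-MMP28 cocultures. The 9 libraries outside control therefore all come from cocultures with overexpressing cells. No group is labelled with a control antibody, and nothing in the labels says that the 3 libraries of a group came from separate cultures, so p-values measure only the spread between these libraries.

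IL-1α and IL-1β signal through the receptor IL1R1, which pairs with the accessory protein IL1RAP to recruit the adaptor MYD88. The receptor antagonist, encoded by IL1RN, occupies IL1R1 without recruiting IL1RAP, and IL1R2 is a decoy that binds ligand but lacks the signalling domain. IL-18 is held in check in a similar way by its soluble binding protein IL18BP. Monocytes and macrophages are a main source of IL-1β, IL-18 and the receptor antagonist. IL-1β and IL-18 are made as precursors that caspase-1 cleaves, so a transcript level is not a level of active cytokine.

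The balance between IL-1 agonist and antagonist rests on IL1A, IL1B and IL1RN, which all lie in the IL-1 cluster on chromosome 2, and their promoter windows are shown for that reason. Each window runs from 250 bases before to 50 bases after a RefSeq transcription start of GRCh38.p14, 5′ to 3′ on the gene's own strand. Where RefSeq gives several starts for 1 gene, the one furthest downstream is shown. Of the 10 members, 9 had such windows, 20 in all. IL18 had none. Capitals mark matches, on either strand, to TATAAA, to the AP-1 motif TGANTCA, to the C/EBP motif TTGCNNAA and to the interferon response element. The windows were also searched for the PU.1 motif GAGGAA and for the NF-kB motif.
IL1A, chr2:112784351-112784650, minus strand: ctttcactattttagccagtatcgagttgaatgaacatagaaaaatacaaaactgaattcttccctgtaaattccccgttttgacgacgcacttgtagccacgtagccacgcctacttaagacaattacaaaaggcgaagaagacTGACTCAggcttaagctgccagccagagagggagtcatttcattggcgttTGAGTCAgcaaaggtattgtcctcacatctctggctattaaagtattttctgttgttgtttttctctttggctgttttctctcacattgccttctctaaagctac
IL1B, chr2:112836730-112837029, minus strand: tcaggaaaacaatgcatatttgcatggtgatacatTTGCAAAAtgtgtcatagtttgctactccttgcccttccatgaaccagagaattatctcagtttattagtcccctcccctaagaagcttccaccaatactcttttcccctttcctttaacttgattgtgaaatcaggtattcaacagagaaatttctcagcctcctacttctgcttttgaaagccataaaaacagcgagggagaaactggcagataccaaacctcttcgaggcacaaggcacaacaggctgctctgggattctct
IL1RN, chr2:113127348-113127647, plus strand: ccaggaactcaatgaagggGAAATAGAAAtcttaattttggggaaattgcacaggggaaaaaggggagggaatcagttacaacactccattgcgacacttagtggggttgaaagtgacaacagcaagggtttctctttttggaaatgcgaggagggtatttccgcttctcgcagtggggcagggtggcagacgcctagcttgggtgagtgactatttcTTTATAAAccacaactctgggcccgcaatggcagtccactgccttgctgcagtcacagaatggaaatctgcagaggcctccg
The IL1A window holds 2 AP-1 matches and the IL1B window 1 C/EBP match. The IL1RN window holds 1 interferon response element and 2 overlapping TATA matches, 1 on each strand, which share their middle bases. Of 35116 RefSeq windows of this length, 7.71% hold the AP-1 motif, 10.5% the C/EBP motif, 11.5% the TATA motif and 3.57% the interferon response element, while the PU.1 and NF-kB motifs, absent from these windows, are held by 27.9% and 11.3%. A match describes the letters only.

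Library totals lay between 15852346 and 18701195 counts, so 3 counts correspond to 0.160 to 0.189 CPM, the usual unit of counts per library total. Mitochondrial genes took 6.92% to 17.8% of counts, with the highest share in anti-VEGFA library 2. CD14 (11260 to 28850 counts) and ITGAM (6266 to 10445 counts) were abundant in all 12 libraries, while CD68, LYZ and CD163, also macrophage markers, had only 0 to 5, 76 to 182 and 27 to 74 counts. The 10 epithelial markers listed for AsPC-1 cells summed to 3.13 to 6.34 CPM, and EPCAM had 0 counts in every library. MMP28 also had 0 counts in every TAM library. The overexpression concerned the AsPC-1 cells, so this does not check it. A list of 10 interferon-stimulated genes separated control, at 2439 to 3506 summed CPM, from the other groups. These held 281 to 422 for OE-MMP28, 267 to 308 in the anti-IL-8 libraries and 313 to 443 in those of anti-VEGFA. The OE-MMP28 range overlapped with both antibody ranges.

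Levels of different genes were compared only as FPKM, the authors' values scaled for gene length and library size. Where checked, that length took in all exonic bases of a gene (4323 for IL18BP, 11558 for IL1RAP), which can exceed a single transcript. The order of genes and the size of ratios between them depend on it. IL1RN and IL1B stood far above the others, with mean FPKM levels over the 12 libraries of 3133 and 2669, the 17th and 20th highest of all genes listed, and their ranges over the libraries overlapped (2340 to 3877 and 2292 to 3008). IL1RN took 0.722% to 1.32% of all counts of a library and IL1B 0.698% to 0.915%. IL1A followed at a mean FPKM level of 88.2, then IL1R1 at 12.4, IL18 at 10.07 and IL36G at 8.79. The FPKM ranges of these last 3 genes over the libraries overlapped (8.38 to 17.6, 8.98 to 11.7 and 5.59 to 13.4), so their order is not fixed. IL1RAP averaged 1.73 FPKM and IL18BP 0.608, with ranges that overlapped between 0.883 and 1.19. IL1R2 (0.200 FPKM) and IL37 (0.163 FPKM) lay near the detection limit.

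**Figure D1:**
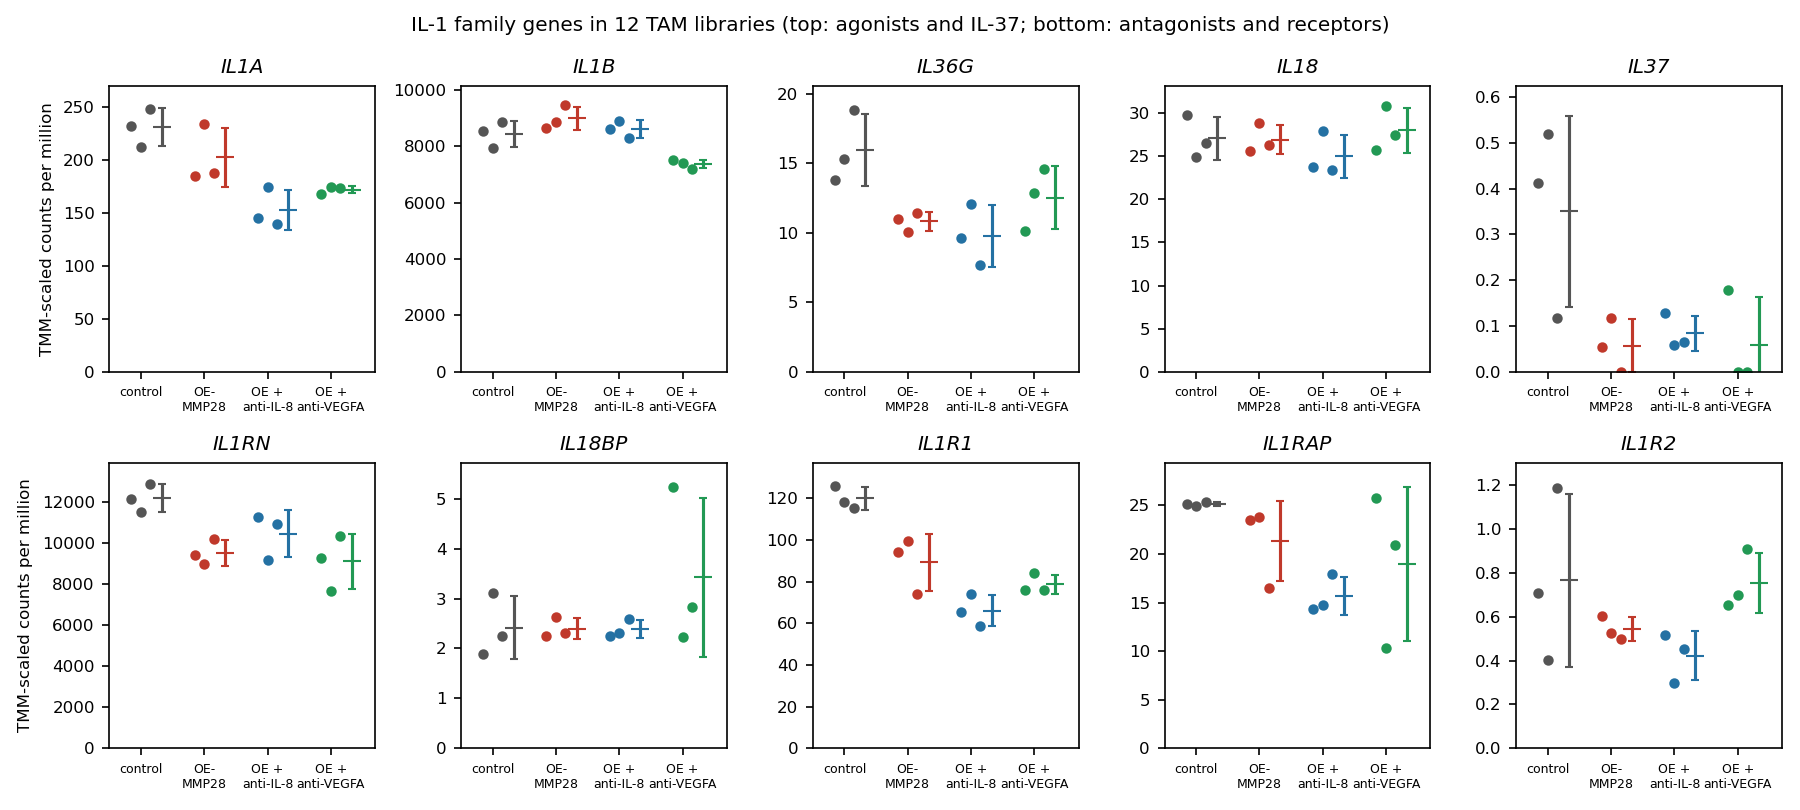
Levels of the 10 IL-1 family genes in TMM-scaled CPM (linear axes from 0) in the 12 TAM libraries. Each point is 1 library, and bars give the mean ± SD of 3 libraries, ending at the axis where the SD exceeds the mean. IL1R1 and IL1RN are highest in the 3 control libraries, and IL1B differs little among the first 3 groups.

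Among the agonists, IL1B, which encodes the main secreted IL-1 of macrophages, had by far the highest level. IL1B was measured at 8539, 7927 and 8849 CPM, scaled by TMM as all CPM values below, in the 3 control libraries and at 8662, 8867 and 9450 CPM in OE-MMP28. The anti-IL-8 libraries gave CPM values of 8628, 8900 and 8280, and the anti-VEGFA libraries 7496, 7421 and 7200. The libraries of the first 3 groups overlapped, while the 3 anti-VEGFA libraries lay below all 9 others. The log2 fold change of IL1B was 0.09 for OE-MMP28 against control (SE 0.13, adjusted p = 0.815). For anti-VEGFA against OE-MMP28 it was -0.29 (SE 0.13, unadjusted p = 0.0427, adjusted p = 0.249), which did not pass. Adjusted p-values here and below come from edgeR's quasi-likelihood test over the 16046 genes with Benjamini-Hochberg adjustment at 0.05. In bulk RNA, fewer cells of a type and less RNA per cell cannot be told apart.

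IL1A encodes IL-1α, which is active without caspase-1 cleavage and can be released by damaged cells. The control libraries held 232, 212 and 248 CPM and those of OE-MMP28 185, 234 and 187 CPM. Values of 145, 174 and 140 CPM were found with anti-IL-8, and of 168, 174 and 173 CPM for anti-VEGFA. Both antibody groups lay below every control and every OE-MMP28 library, and OE-MMP28 overlapped with control. Against control, IL1A fell by 0.60 on the log2 scale with anti-IL-8 (SE 0.13, adjusted p = 0.00545) and by 0.42 for anti-VEGFA (SE 0.13, adjusted p = 0.0422). The second call was lost when any of 9 single libraries was left out, with adjusted p-values of 0.0568 to 0.151, and when libraries were scaled by their totals (adjusted p = 0.0531). Against OE-MMP28, the log2 fold change of IL1A was -0.40 with anti-IL-8 (SE 0.13, adjusted p = 0.0708) and -0.23 with anti-VEGFA (SE 0.13, adjusted p = 0.334). OE-MMP28 itself differed from control by -0.19 (SE 0.13, adjusted p = 0.552).

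IL36G, an agonist of the separate IL-36 receptor best known from epithelia, was measured at lower levels. The control libraries held 13.8, 15.3 and 18.8 CPM and the OE-MMP28 libraries 11.0, 10.1 and 11.4 CPM. In the anti-IL-8 libraries IL36G was at 9.59, 12.1 and 7.66 CPM, and in those of anti-VEGFA at 10.1, 12.9 and 14.6 CPM. The OE-MMP28 and anti-IL-8 libraries were below all control libraries, and 1 anti-VEGFA library was within the control range. IL36G fell by 0.71 on the log2 scale with anti-IL-8 against control (SE 0.19, adjusted p = 0.0149). This call was lost without control library 3 (adjusted p = 0.0851), anti-IL-8 library 1 (0.0696) or anti-IL-8 library 3 (0.0959). For OE-MMP28 against control, the log2 difference was -0.56 (SE 0.18, adjusted p = 0.128).

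IL18, whose product drives interferon-γ release by lymphocytes, had overlapping levels in all 4 groups. It was measured at 29.8, 24.95 and 26.5 CPM in the control libraries and at 25.6, 28.8 and 26.3 CPM in those of OE-MMP28. The anti-IL-8 libraries held 23.7, 27.9 and 23.4 CPM and the anti-VEGFA libraries 25.7, 30.9 and 27.5 CPM. The lowest and the highest of the 12 values both came from antibody libraries. The difference between OE-MMP28 and control had a log2 value of -0.01 with a 95% interval of -0.29 to 0.27, and no comparison of IL18 passed the test. IL37, an anti-inflammatory family member, had 7, 9 and 2 counts in control, 1, 2 and 0 for OE-MMP28, 2, 1 and 1 with anti-IL-8, and 3, 0 and 0 for anti-VEGFA. The control libraries together held 18 IL37 counts against 3 in OE-MMP28, a ratio of 6.19 per library total with an exact 95% interval of 1.81 to 32.8 that covers counting error only. The lowest control library overlapped with the other groups, and IL37 was not tested.

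The antagonist IL1RN was the member with the highest level. It was measured at 12157, 11517 and 12871 CPM in the control libraries and at 9402, 8953 and 10196 CPM in OE-MMP28. Libraries with anti-IL-8 held 11253, 9148 and 10941 CPM, and those with anti-VEGFA 9286, 7676 and 10335 CPM. All 9 libraries from OE-MMP28 cocultures lay below the 3 control libraries. The lowest value came from anti-VEGFA library 2, which also had the largest mitochondrial share, 17.8%, and the part of that share in the result was not tested. The differences did not pass the adjusted threshold. The log2 fold change against control was -0.36 for OE-MMP28 (SE 0.15, unadjusted p = 0.0312, adjusted p = 0.282), -0.22 with anti-IL-8 (SE 0.15, adjusted p = 0.310) and -0.42 for anti-VEGFA (SE 0.15, adjusted p = 0.0833). The last of these was called by DESeq2 (adjusted p = 0.0205), as were 13.1% of all genes, and with the replicate number as a block (0.0478), as were 10.9%. Leaving out single libraries moved it between -0.52 and -0.30. IL1RN makes secreted and intracellular proteins from different first exons, which gene counts do not separate.

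IL18BP, the soluble trap for IL-18, was measured at 1.89, 3.12 and 2.25 CPM in the control libraries and at 2.25, 2.63 and 2.31 CPM in those of OE-MMP28. Libraries with anti-IL-8 had 2.25, 2.31 and 2.60 CPM, and those with anti-VEGFA 5.23, 2.22 and 2.83 CPM. Apart from 1 anti-VEGFA library at 5.23 CPM, the groups lay on top of each other. For OE-MMP28 against control the log2 difference was -0.01, with a 95% interval of -0.66 to 0.63, which leaves room for a moderate difference in either direction. IL18BP is known as an interferon-γ target, and in the same comparison all 10 interferon-stimulated genes passed the test and were lower, the median of their log2 values being -4.12. The part of that shift in the IL18BP level was not tested. Of the 4323 exonic bases of IL18BP, 675 are shared with NUMA1 on the opposite strand (732 to 1276 counts), and the library kit does not mark strand, so reads of the 2 genes cannot be told apart there.

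IL1R1, the signalling receptor for both IL-1 cytokines, had the lowest adjusted p-values of the members against control. It was measured at 126, 118 and 115 CPM in the control libraries and at 94.3, 99.5 and 73.9 CPM in those of OE-MMP28. In the anti-IL-8 libraries it was at 65.4, 74.1 and 58.9 CPM, and for anti-VEGFA at 76.2, 84.0 and 76.0 CPM. Every library from an OE-MMP28 coculture lay below every control library, and the anti-VEGFA libraries lay above the anti-IL-8 libraries. Against control, IL1R1 fell with anti-IL-8 to 0.552 of the control level (log2 fold change -0.86, SE 0.13, adjusted p = 3.46e-04) and with anti-VEGFA to 0.657 of it (log2 fold change -0.61, SE 0.13, adjusted p = 0.00696). These calls were kept under every alternative tried, each library left out included. OE-MMP28 without antibody differed from control by -0.43 on the log2 scale (SE 0.13, adjusted p = 0.0978). This difference passed without OE-MMP28 library 2 (adjusted p = 0.0477) and with the replicate number as a block (0.0498). The further step from OE-MMP28 to anti-IL-8 was also -0.43 (SE 0.13, adjusted p = 0.0653). It passed without OE-MMP28 library 3 (adjusted p = 0.0079), with the block (0.0481) and by DESeq2 (0.0236). The block called 3.2% of all genes for the first of these comparisons and 4.95% for the second.

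IL1RAP, the accessory chain of IL1R1 and also of the IL-33 and IL-36 receptors, was at 25.1, 24.9 and 25.3 CPM in the control libraries and at 23.5, 23.8 and 16.5 CPM in those of OE-MMP28. In the anti-IL-8 libraries it was at 14.3, 14.8 and 17.9 CPM, and for anti-VEGFA at 25.8, 10.3 and 20.9 CPM. The control libraries were almost equal, with a coefficient of variation of 0.894%, while those of anti-VEGFA varied by 41.7%. The lowest value, 162 counts, again came from the library with the largest mitochondrial share, whose part in it was not tested. IL1RAP fell by 0.68 on the log2 scale with anti-IL-8 against control (SE 0.23, adjusted p = 0.0466). This call was lost with voom (adjusted p = 0.0510), with FPKM values (0.0940 and 0.107), with the replicate block (0.0556), and without any of 8 single libraries (0.0581 to 0.179). The decoy IL1R2 had 12, 7 and 20 counts in control, 11, 9 and 8 for OE-MMP28, 8, 5 and 7 with anti-IL-8, and 11, 11 and 17 for anti-VEGFA. At these counts the interval for OE-MMP28 against control ran from -1.43 to 0.47 on the log2 scale, and no comparison passed.

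Counted over the members, the calls lay in the comparisons of an antibody group with control, and in all of them the member was lower. With anti-IL-8 against control, 4 of the 9 members tested passed (IL1A, IL36G, IL1R1 and IL1RAP), where 20.7% of all 16046 genes did. At an unadjusted p under 0.05 the same comparison gave 4 members and 35.9% of all genes. With anti-VEGFA against control, 2 members passed (IL1A and IL1R1) against a background of 11% of genes, and at the unadjusted threshold 3 members against 27%. The median log2 fold change of the 9 members was -0.60 for the anti-IL-8 libraries and -0.35 for those of anti-VEGFA, where the medians over all genes tested were -0.02 and 0.0014. These comparisons share the 3 control libraries.

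For OE-MMP28 against control, none of the 9 members passed with edgeR, DESeq2 or voom, where 3.16% of all genes passed with edgeR. At an unadjusted p under 0.05 there were 3 members, IL1RN, IL36G and IL1R1, all lower, against 14.5% of genes. The median over the members was -0.24, against 0.02 over all genes. Having all 9 libraries from OE-MMP28 cocultures below all control libraries, a count added after the values were seen, held for 2 members, IL1RN and IL1R1, and for 5.7% of all genes. These 9 libraries share the overexpressing AsPC-1 cells, so an effect of MMP28 and any other difference of the control cultures cannot be told apart.

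The comparisons with OE-MMP28 ask what each antibody changed. With anti-IL-8, no member passed with edgeR or voom and 2 did with DESeq2 (IL1A and IL1R1), while 0% of all genes passed with edgeR. DESeq2 gave an adjusted p to 9824 genes, 7 members among them, and called 23% of these genes. At an unadjusted p under 0.05 these 2 members were lower, against 29.3% of genes. With anti-VEGFA, no member passed with any of the 3 tools, against 0.343% of genes with edgeR, and at the unadjusted threshold IL1B alone was lower, against 18.8%. The antibodies set against each other gave no member at either threshold by edgeR and none by DESeq2 or voom, with 0.199% and 15% of all genes. Of the members, 7 of 9 had a positive log2 value there, as did 52.25% of all genes, and the median was 0.25, against 0.02 over all genes.

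**Figure D2:**
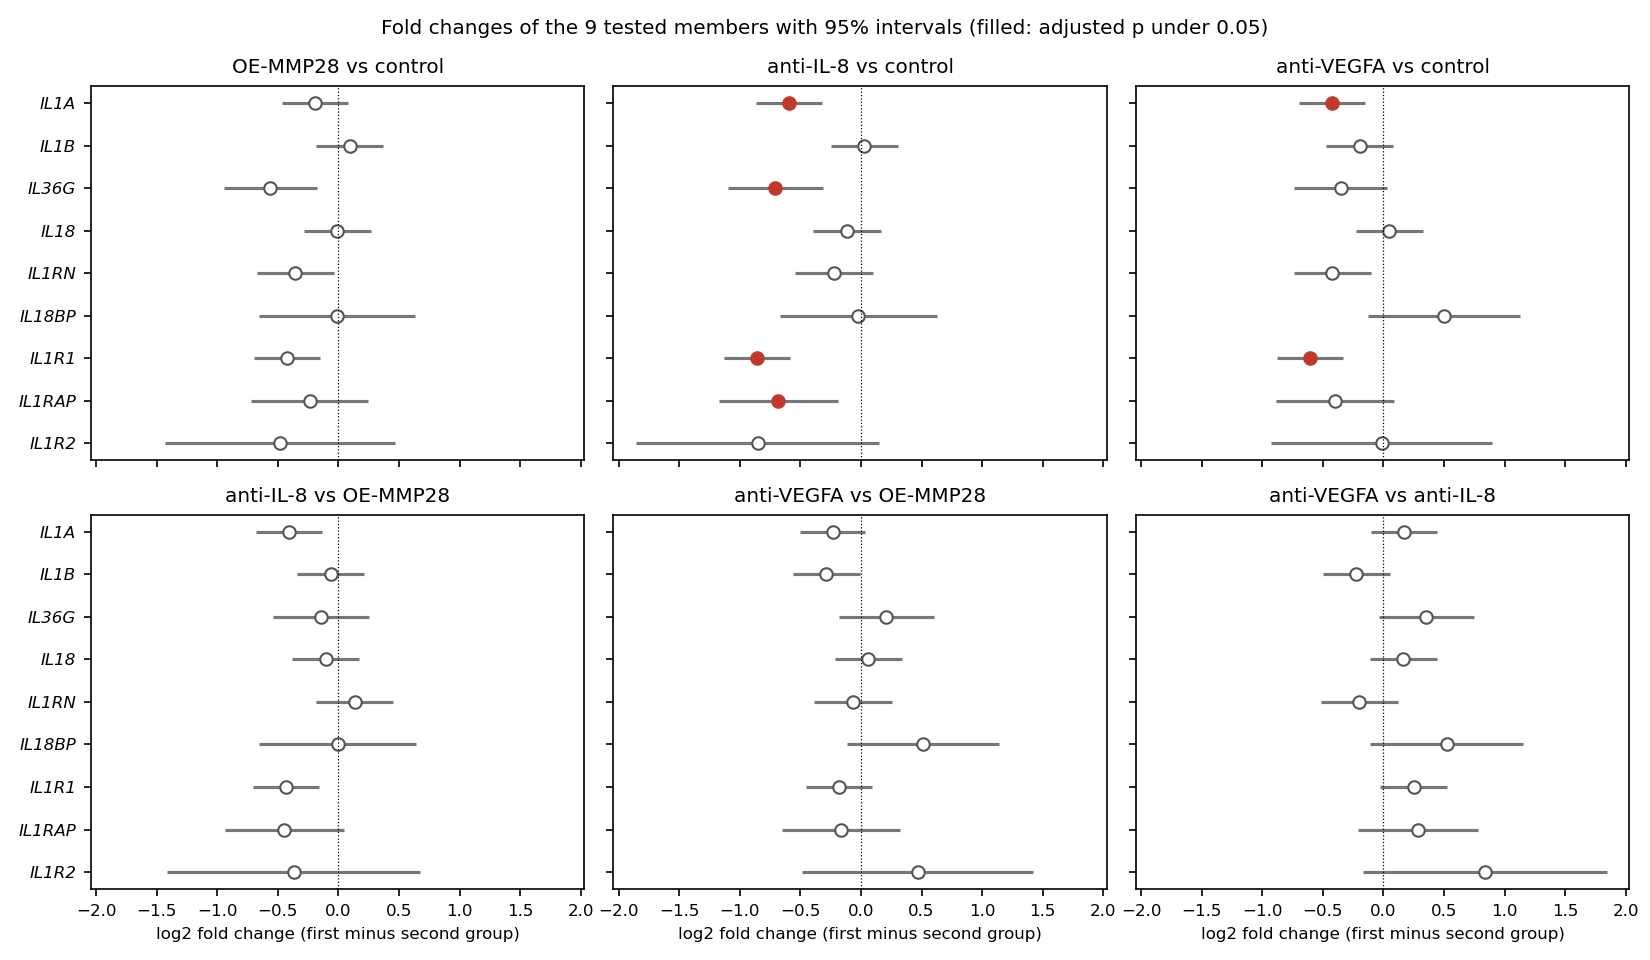
Log2 fold changes of the 9 tested members in the 6 comparisons, with 95% intervals from edgeR's quasi-likelihood fit; filled points have an adjusted p under 0.05. Filled points appear only against control, at 4 members for anti-IL-8 and at 2 for anti-VEGFA, all below 0.

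The balance of agonist to antagonist was followed as the ratio of FPKM levels within each library, with 0.1 FPKM added to both sides. The addition hardly matters for IL1A, IL1B and IL1RN, but lowers the ratio of IL18 to the sparse IL18BP. The ratio of IL1B to IL1RN was 0.739, 0.724 and 0.723 in the control libraries and 0.969, 1.04 and 0.975 in those of OE-MMP28. In the anti-IL-8 libraries it was 0.807, 1.02 and 0.796, and for anti-VEGFA 0.849, 1.02 and 0.733. All OE-MMP28 libraries lay above all control libraries, while each antibody group had 1 library within the OE-MMP28 range and 2 below it. The ratio in OE-MMP28 was 1.37 times that in control (log2 difference 0.45, SE 0.13), and the antibody groups lay between these at 1.19 and 1.18 times control. That SE uses a spread pooled over all 4 groups. The SD of the log2 ratio was 0.017 in control and 0.058 in OE-MMP28, against 0.20 with anti-IL-8 and 0.24 for anti-VEGFA. An exact permutation test over the 12 libraries in 4 groups gave p = 0.0604, two-sided. After Benjamini-Hochberg adjustment over the 4 balances tested, this p was 0.142, which did not pass. The test cannot decide whether OE-MMP28 and control differ, because the antibody groups, with their wider spread, enter the same test. Leaving out 1 library moved the adjusted p between 0.0504, without anti-IL-8 library 2, and 0.232, without control library 1. The smallest p that test allows is 6.49e-05, and pairs of groups were not tested on their own. With permutation within replicate numbers, the adjusted exact p was 0.0174, but the numbers did not pair the libraries.

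Adding IL1A to the agonist side changed little, since its FPKM level was a small fraction of that of IL1B. The summed ratio had geometric means of 0.758 in control, 1.03 for OE-MMP28, 0.892 with anti-IL-8 and 0.888 for anti-VEGFA (exact permutation p = 0.0712, adjusted 0.142). For IL1A to IL1RN the geometric means were 0.0291, 0.0325, 0.0224 and 0.0292 in the same order, with overlapping libraries in all groups (exact permutation p = 0.124, adjusted 0.165, or 0.0504 without anti-IL-8 library 2 and 0.526 without anti-IL-8 library 3). IL18 was well above IL18BP in all 12 libraries, with geometric mean ratios of 16.0, 15.8, 14.7 and 12.7 (exact permutation p = 0.812, adjusted 0.812). The ratio of IL1R1 to its decoy IL1R2 was not tested because IL1R2 averaged under 10 counts in at least 1 group.

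Of the members, 5 lie in the IL-1 gene cluster on chromosome 2, in the order IL1A (112773915 to 112784590), IL1B (112829751 to 112836903), IL37 (112912971 to 112918882), IL36G (112973203 to 112985665) and IL1RN (113107214 to 113134016), in the coordinates of GRCh38 as deposited. Between IL36G and IL1RN lie IL36A, IL36B, IL36RN and IL1F10, which are not members. IL36B, another IL-36 agonist, had 2100, 2182 and 2026 counts in control and 1224, 1315 and 1100 in OE-MMP28. IL36RN, the antagonist of the IL-36 receptor, had 174, 149 and 143 counts in control and 44, 54 and 37 in OE-MMP28. Both fell in all 3 comparisons with control. For IL36B the log2 fold changes were -0.80, -0.78 and -0.87 in OE-MMP28, anti-IL-8 and anti-VEGFA (SE 0.14 each, adjusted p = 0.00275, 0.00203 and 9.42e-04). For IL36RN they were -1.79, -1.27 and -1.45 (SE 0.22, 0.21 and 0.21, adjusted p = 3.20e-05, 7.46e-04 and 2.65e-04). IL1F10 had the lowest values of the cluster, -2.61, -2.66 and -2.52 (SE 0.80, 0.82 and 0.78), but few counts. It had 18, 21 and 30 counts in control and 0 to 9 in the other libraries. It passed the filter on low counts only through control, where it was highest, so no p-value is given. IL36A, at 0 to 13 counts, passed in none of these comparisons. IL1A, IL1B and IL1RN, at the ends of the cluster, had values nearer 0 than IL36B, IL36RN and IL1F10 in each comparison. This did not hold against all inner genes. With anti-VEGFA, IL36G (-0.35) and IL36A (-0.24) were nearer 0 than IL1A (-0.42) and IL1RN (-0.42). The difference between genes along the cluster was not tested.

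**Figure D3:**
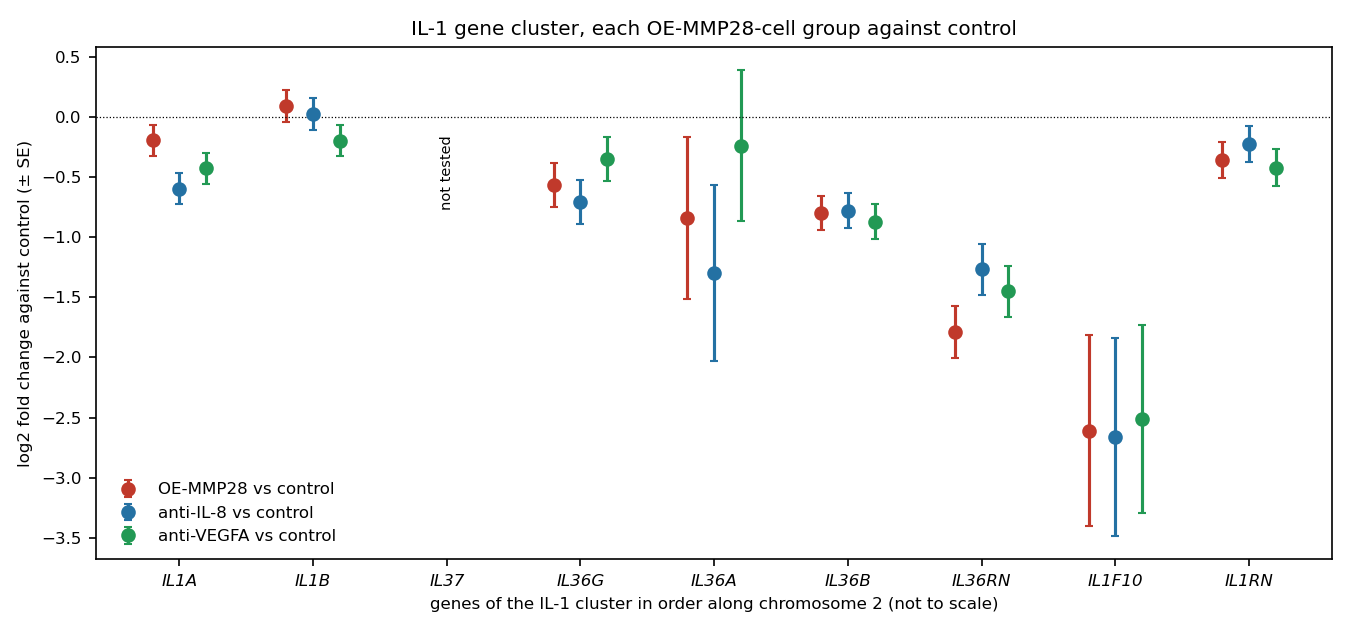
Log2 fold change ± SE against control of the 9 genes of the IL-1 cluster, in their order along chromosome 2 (spacing not to scale), for OE-MMP28, anti-IL-8 and anti-VEGFA. IL36B and IL36RN lie between -0.78 and -1.79 in all 3 groups, IL1B lies near 0, and IL37 was not tested. IL1F10, with only 0 to 30 counts, lies lowest, between -2.52 and -2.66.

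The other genes of the pathway were counted in 4 lists of 69 genes, of which 64 were tested. For OE-MMP28 against control, 7 of the 64 passed, 1 higher and 6 lower, where 3.16% of all genes did. At an unadjusted p under 0.05, 17 passed, where 14.5% of all genes did. The 17 include IL1F10, which passed the filter on low counts only through control. Among 8 tested ligands and receptors, 3 fell: IL36B, IL36RN and IL33, an alarmin of the IL-1 family (98, 98 and 108 counts in control, 48, 67 and 32 in OE-MMP28, log2 fold change -1.06, SE 0.27, adjusted p = 0.0405). Of 21 signalling genes, 1 fell. This was MYD88, the adaptor shared by IL-1 and Toll-like receptors, which averaged 134 ± 14.3 CPM in control and 63.2 ± 2.42 in OE-MMP28 (SD, n = 3 each; log2 fold change -1.08, SE 0.12, adjusted p = 1.17e-05). The groups did not overlap for either gene.

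Of 16 genes of precursor processing and release, 2 fell. AIM2, a sensor of cytosolic DNA that activates caspase-1, had 627, 830 and 519 counts in control and 127, 119 and 112 in OE-MMP28 (log2 fold change -2.47, SE 0.20, adjusted p = 2.04e-07). CASP1, which encodes caspase-1 itself, had 971, 1236 and 951 counts in control and 747, 702 and 713 in OE-MMP28 (log2 fold change -0.55, SE 0.12, adjusted p = 0.0157). Both stayed below control in the antibody groups, where AIM2 differed from control by -2.98 and -2.59 and CASP1 by -0.77 and -1.02 on the log2 scale, with anti-IL-8 and anti-VEGFA in turn. AIM2, CASP1 and MYD88 are known to respond to interferons, and the list of 10 interferon-stimulated genes was lower in the same libraries, as given above. The part of that shift in their values was not tested.

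Of 19 tested inflammatory target genes, 1 rose in OE-MMP28 against control. CSF2, which encodes the growth factor GM-CSF, had 84, 85 and 93 counts in control, 166, 154 and 208 for OE-MMP28, 197, 238 and 176 with anti-IL-8, and 121, 120 and 129 for anti-VEGFA (OE-MMP28 against control, log2 fold change 1.01, SE 0.18, adjusted p = 0.00172). With anti-IL-8 against OE-MMP28, 0 of the 64 genes passed with edgeR, as for all genes, and none with voom. DESeq2 called 16 of them and 23% of all genes with an adjusted p, and at edgeR's unadjusted p under 0.05 there were 27, where 29.3% of all genes passed. With anti-VEGFA against OE-MMP28, 15 passed at the unadjusted threshold, where 18.8% of all genes did, and 1 at the adjusted one, where 0.343% did. This 1 was IL1RL2, the receptor chain bound by the IL-36 cytokines, with 2, 2 and 2 counts in OE-MMP28 and 19, 22 and 23 with anti-VEGFA. The ratio per library total was 10.7, with an exact 95% interval of 4.66 to 30.3 for counting error only (adjusted p = 0.0170). IL1RL2 had 4, 6 and 1 counts in control and 6, 3 and 8 with anti-IL-8, below all 3 anti-VEGFA libraries. It passed the filter on low counts only through the anti-VEGFA libraries, the group in which it was then called higher. Its adjusted p carries that selection, so the call is given as a description.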

How the data were processed

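RNA of TAMs was sequenced in 12 libraries. The labels name total RNA and a NEBNext Ultra library kit, which does not mark strand. The authors deposited 1 table with read counts per gene and FPKM values for all 12 libraries, over 58735 genes with GRCh38 coordinates. The submitters' processing notes name HISAT2 2.0.5 and featureCounts 1.5.0-p3. The deposited FPKM values were proportional to count divided by the deposited gene length within each library. Columns with the authors' own comparisons (fold changes on the log2 scale with raw and adjusted p-values) were not used.

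Samples were grouped by their titles. Counts were analysed in R 4.3.3 with edgeR 4.0.16: filterByExpr left 16046 genes, libraries were scaled by TMM, and a quasi-likelihood fit of all 4 groups gave 6 comparisons, adjusted by Benjamini-Hochberg within each over all genes tested. Fold changes use a prior count of 0.125. The common dispersion was 0.0231. Balances are log2 ratios of FPKM with 0.1 added, tested by an exact permutation test over the 12 libraries (Python 3.11.15). The members and gene lists were chosen with earlier results of these data known. All members are named, as are the other genes of the IL-1 cluster. A further gene of the 4 lists is named where it passed in OE-MMP28 against control or an antibody against OE-MMP28. Alternatives were DESeq2 1.42.0, voom and FPKM in limma 3.58.1, library totals, other filters, 2 groups only, a replicate block, other pseudocounts and each library left out. The count analysis was tested on simulated data. Pairwise comparison of libraries within each group found no pair that differed by less than sampling noise. Pairs across groups were not compared in this way.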

Additional observations from a re-analysis of the deposited data

How the results depend on the processing

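No member fold change with an unadjusted p under 0.05 changed sign under any alternative. The direction of the balances was not compared. The IL1R1 calls of both antibodies against control were kept in all. The cause of the changes listed here was not tested. Members called, which numbered 0 for OE-MMP28 against control, 0 for anti-IL-8 against OE-MMP28 and 0 for anti-VEGFA against OE-MMP28, became 3, 2 and 1 at the unadjusted threshold. That threshold called 14.5%, 29.3% and 18.8% of all genes there. For anti-IL-8 against OE-MMP28, DESeq2 called 2 members and 23% of all genes with an adjusted p. For anti-VEGFA against control the count went from 2 to 1 with library totals. It went to 3, IL1RN added, with DESeq2, the replicate block and the unadjusted threshold, which called 13.1%, 10.9% and 27% of all genes. The 64 other pathway genes gave 17, 27 and 15 calls at the unadjusted threshold in these 3 comparisons, in place of 7, 0 and 1. For anti-IL-8 against OE-MMP28, DESeq2 called 16 of them and no filter on low counts 12. For anti-VEGFA against OE-MMP28, a fit of 2 groups only left 0. A minimum of 10 counts in every library also left 0, but it removed IL1RL2 before any test and so cannot check that call.

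Leaving out 1 library in turn moved the members called between 0 and 1 for OE-MMP28 against control (1 without OE-MMP28 library 2), between 0 and 2 for anti-IL-8 against OE-MMP28 (2 without OE-MMP28 library 3), between 2 and 4 for anti-IL-8 against control (2 without control library 3, anti-IL-8 library 1 or anti-IL-8 library 3), and between 1 and 2 for anti-VEGFA against control (1 in 9 of the 12 fits, all but those without OE-MMP28 library 2, OE-MMP28 library 3 or anti-IL-8 library 2). The other pathway genes ranged from 5 to 10 for OE-MMP28 against control, from 0 to 24 for anti-IL-8 against OE-MMP28 (24 without OE-MMP28 library 3, 11 without anti-VEGFA library 2) and from 0 to 6 for anti-VEGFA against OE-MMP28 (6 without OE-MMP28 library 3, 3 without anti-VEGFA library 2, and 0 without OE-MMP28 library 1 or 2 or anti-VEGFA library 1 or 3). Without OE-MMP28 library 3, 4125 genes in all passed for anti-IL-8 against OE-MMP28, and without anti-VEGFA library 2, 1166, in place of 0. For anti-VEGFA against OE-MMP28, the same 2 fits called 1402 and 84 genes in all, in place of 55. The fits that left 0 pathway genes there called 8 to 27. For anti-IL-8 against control, 3317 genes in all passed with every library kept. This fell to 1394 without control library 3, to 1312 without anti-IL-8 library 1 and to 1361 without anti-IL-8 library 3. In the 9 fits with 1 member for anti-VEGFA against control, 662 to 1671 genes passed, in place of 1760. For OE-MMP28 against control, 295 to 641 genes in all passed over the 12 fits, 514 without OE-MMP28 library 2, in place of 507. The adjusted exact permutation p ranged from 0.0504 to 0.232 for IL1B and for the summed IL1A and IL1B against IL1RN, from 0.0504 to 0.526 for IL1A against IL1RN, and from 0.236 to 0.919 for IL18 against IL18BP.

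The replicate numbers were shared by the groups but did not pair the libraries: 4 of 18 same-number pairs had correlated deviations over 0.1, and 4 of 12 libraries were closest to their own number. As a replicate block they gave 1 member (IL1R1) for OE-MMP28 against control, 1 (IL1R1) for anti-IL-8 against OE-MMP28, 3 in place of 2 for anti-VEGFA against control, 3 in place of 4 for anti-IL-8 against control (IL1RAP lost), 8 other pathway genes for anti-IL-8 against OE-MMP28, and an adjusted exact permutation p of 0.0174 for both the IL1B and the summed IL1A and IL1B ratio to IL1RN. The block called 3.2%, 4.95% and 10.9% of all genes in the first 3 of these comparisons, in that order. Depth limits IL37, IL1R2 and IL18BP, whose intervals are wide.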

Other observations

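Among the members, log2 CPM over the 12 libraries was most alike for IL1A and IL1R1 (Pearson r = 0.92), while IL1B and IL1RN, neighbours at the top of the level range, had r = 0.27. Over the same libraries, the protein-coding genes most like IL1RN were PDIA4 (r = 0.96), MMP7 (0.93) and FCRLA (0.92), and those most like IL1B were BCDIN3D (0.88), GLE1 (0.86) and ACAT1 (0.86). For IL18 they were MTSS1 (0.90), RAB30 (0.89) and UBXN2A (0.88), and for IL18BP GALNT4 (0.91), CDNF (0.87) and ATXN1L (0.87). These are the highest of the protein-coding genes among the 16046, over 12 points that share groups and library scaling, given as a description.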
